A study of Mus musculus with 9 samples.

Results

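The 43 genes described here encode proteins of ribosome production: subunits of RNA polymerase I, the protein cores of small nucleolar ribonucleoproteins (snoRNPs), assembly factors of the small and large ribosomal subunits and abundant nucleolar proteins. The list also holds Myc, whose product is a transcription factor that drives many genes of this kind. They were taken by gene symbol from a list, and each of the 43 symbols matched 1 row among the 55359 genes of the deposited table of RNA-seq counts. All 43 were among the 14649 genes with enough counts to be tested. The cells were adipocyte precursors from inguinal white adipose tissue of the mouse, a subcutaneous fat depot, grown in culture and turned toward beige adipocytes, fat cells that can burn fuel for heat. There were 9 libraries: 3 of precursors before induction (day 0), and 3 each of cells after 4 and 8 days of differentiation. For the first 2 days the day 4 and day 8 cells had received insulin, triiodothyronine (a thyroid hormone), rosiglitazone (a PPARγ agonist), dexamethasone (a glucocorticoid), 3-isobutyl-1-methylxanthine (a phosphodiesterase inhibitor) and indomethacin. The last 3 agents were then left out of the medium. The sources used here give no strain, sex or age. They do not say either that the replicates were separate cultures or animals, and the p-values then measure the spread among these libraries alone, part of which may be technical.

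Ribosome production starts in the nucleolus, where RNA polymerase I transcribes a long precursor of ribosomal RNA. Box C/D and box H/ACA snoRNPs guide its methylation and pseudouridylation, and a large particle, the small-subunit processome, folds and cuts the part that becomes the small subunit. A separate set of factors assembles the large subunit, and late factors accompany each subunit to the cytoplasm. The pathway uses much of the energy of a growing cell, and cells that leave the cell cycle commonly make fewer ribosomes.

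Total counts per library ranged from 26387408 to 31474490. Values are given as CPM, counts per 1000000 of the library total adjusted by TMM (a scaling that assumes that most genes do not change), as mean ± SD over 3 libraries per day. Fold changes are on the log2 scale with their standard error (SE), and a gene is said to have risen or fallen where edgeR's adjusted p was under 0.05. Markers of the labelled cells behaved as follows: all 8 adipocyte genes of a list (such as Adipoq and Fabp4) and all 5 of beige adipocytes were higher at days 4 and 8 than at day 0. Of 7 tested preadipocyte markers 3 were higher and 3 lower at day 4, and 4 were lower and none higher at day 8. Summed CPM was at most 0.297 in any library for 4 lymphocyte markers, of which Cd3g and Ms4a1 had no counts, and at most 0.459 for 3 mesothelial markers. Summed CPM of 5 macrophage markers was 35.7 to 80.6 at day 0, 40.0 to 62.6 at day 4 and 8.5 to 43.3 at day 8. It was 10.7 to 15, 2.46 to 10.4 and 1.81 to 2.63 for 4 endothelial markers, and 5.98 to 7.07, 6.86 to 9.05 and 10.5 to 17.8 for 4 mural cell markers. Among the libraries, 2 stood apart in ways that touch the genes below. Day 4 replicate 2 lay at 13.7 on the first principal component, against 69.5 and 84.6 for the other day 4 libraries and -138 to -135 at day 0, and it had the highest CPM of the day 4 libraries for 31 of the 43 genes (72.1%, against 41.8% of all tested genes). Day 8 replicate 1 had the largest share of counts from the mitochondrial genome, 8.46% against 4.94% and 5.19% in the other day 8 libraries. It had the highest CPM of the day 8 libraries for 14 of the 43 genes (32.6%, against 32.7% of all tested genes). Npm1, Ncl and Nop58 are among these 14. For 21 of the 43 it had the lowest (48.8%, against 37.6%). The part of cell makeup or of these libraries in the results was not tested.

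By day 4 more of the 43 genes had risen than fallen with TMM scaling, a balance that turned with total counts (6 higher and 8 lower), and none rose from day 4 to day 8 under either scaling. Against day 0, 17 genes were higher and 3 lower at day 4, and 23 did not pass. Among all tested genes 28.6% were higher and 26% lower, so the members' share of calls, 46.5%, was below the background of 54.6%. At day 8, 7 genes were higher and 7 lower than at day 0, a share of 32.6% against a background of 63.4%, made up of 33.5% higher and 29.9% lower. Between day 4 and day 8, 12 genes fell (27.9%) and none rose, against 10.8% of all tested genes that fell and 11.7% that rose (22.4% in all). With TMM the median log2 fold change of the 43 genes was 0.26, -0.03 and -0.22 in the 3 comparisons, beside -0.01, 0.03 and 0.00 over all tested genes. With total counts the medians were -0.07, -0.39 and -0.27, beside -0.34, -0.33 and -0.03, so the sign of the day 4 median depended on the scaling. Large changes were less frequent than elsewhere in the transcriptome, although this was not tested: 9.3% of the members and 38.4% of all tested genes differed at least 2-fold (a log2 fold change of 1 or more) between day 0 and day 4. Counted by groups that do not overlap, 19 of the 43 were higher and 7 lower in every day 4 library than in every day 0 library (32.8% and 33% of all tested genes), and 10 were higher and 14 lower at day 8 (37.4% and 35.3%). Between days 4 and 8 no member was higher in that way and 15 were lower (19.9% and 17.1%). Single libraries moved these counts. Without replicate 2 of day 0, 11 genes rose by day 4. The 3 falls by day 4 became 0 without replicate 3 of day 4 and 5 without replicate 2, and the 12 falls from day 4 to day 8 became 6 without replicate 3 of day 4 or replicate 1 of day 8. The 3 comparisons share libraries, so they are not independent of each other. In bulk samples, fewer cells of a type and less RNA per cell cannot be told apart.

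**Figure D1:**
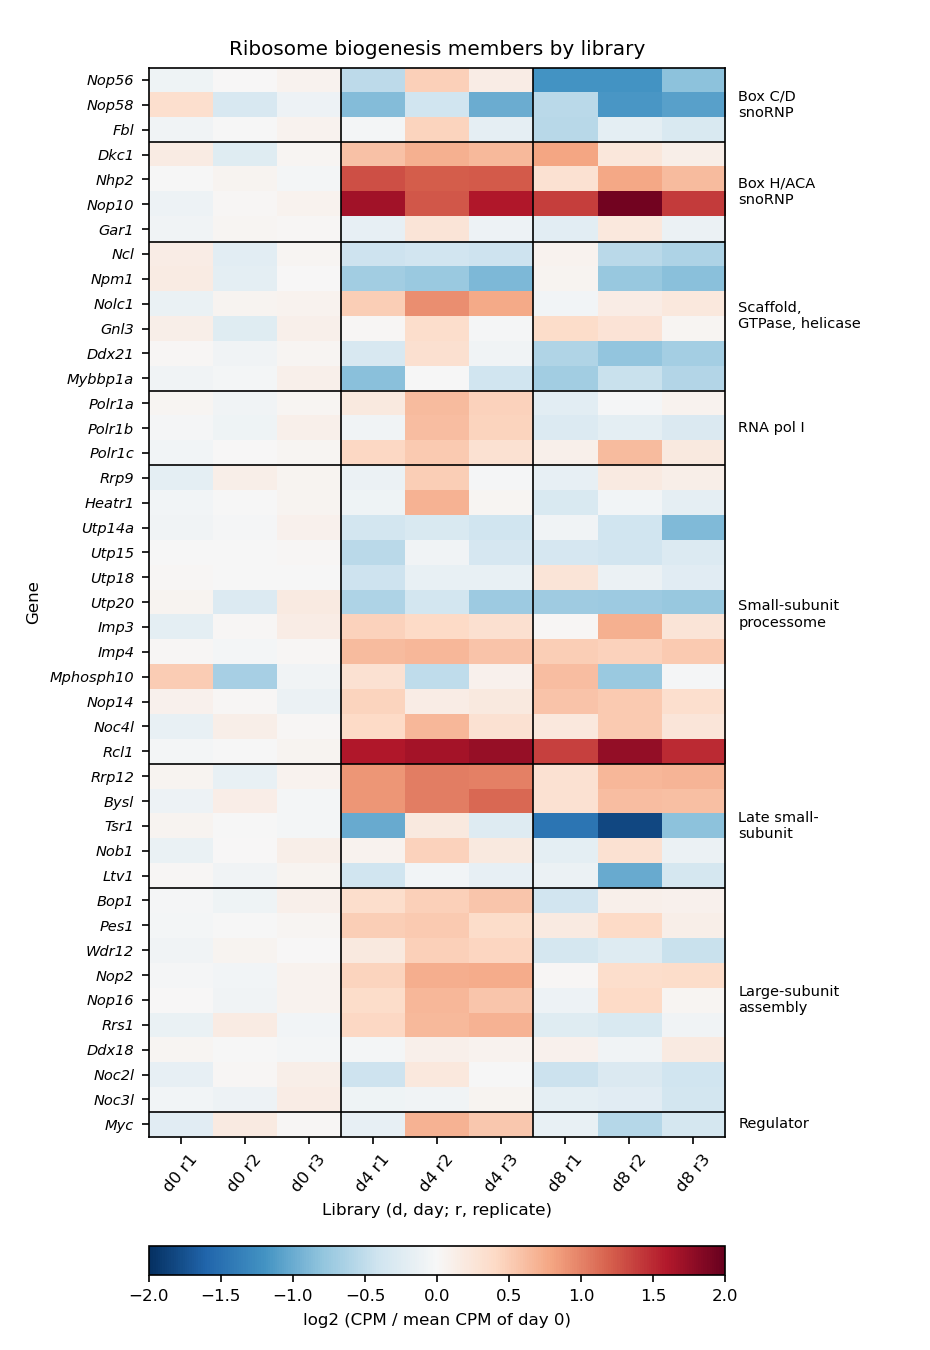
Level of each of the 43 genes in each of the 9 libraries, as log2 of its CPM over its mean CPM at day 0. Rows are grouped by the protein's role and columns by day and replicate. Nop10, Nhp2 and Rcl1 are the deepest red rows at day 4, and Nop56 and Tsr1 are blue at day 8.

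The mean was highest at day 4 for 26 of the 43 genes (60.5%), at day 0 for 12 and at day 8 for 5, whereas 23.5% of all tested genes had their highest mean at day 4. Scaled by total counts in place of TMM, 19 were highest at day 4 (44.2%, against 18.2% of all tested genes) and 22 at day 0. Without day 4 replicate 2 the number was 22 with TMM, and it was 18 without both that library and day 8 replicate 1. With total counts and without day 4 replicate 2 it was 14 (32.6%, against 18.9%).

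Which of the changes from day 0 were called depended on how the libraries were scaled, although no called value changed sign. TMM factors were 1.17 to 1.18 at day 0 and 0.861 to 0.996 at days 4 and 8. With TMM 54.6% of all tested genes were called at day 4 and 63.4% at day 8 against day 0. By these calls TMM's assumption that most genes do not change was not met. Which scaling is nearer to the RNA content of the cells was not tested. With total counts the median of all tested genes moved to -0.34 at day 4 and -0.33 at day 8 against day 0. The 43 genes then gave 6 higher and 8 lower at day 4 (against 21% and 38.4% of all tested genes) and 2 higher and 19 lower at day 8 (24.8% and 41.3%). The 6 that were higher at day 4 under both scalings were Nhp2, Nop10, Nolc1, Rcl1, Rrp12 and Bysl, and at day 8 Nop10 and Rcl1 were. All 3 falls by day 4 and all 7 by day 8 were also called with total counts. From day 4 to day 8, 11 were lower and none higher with total counts (10.4% and 10.8% of all tested genes), and the call that was lost is that of Tsr1.

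**Figure D2:**
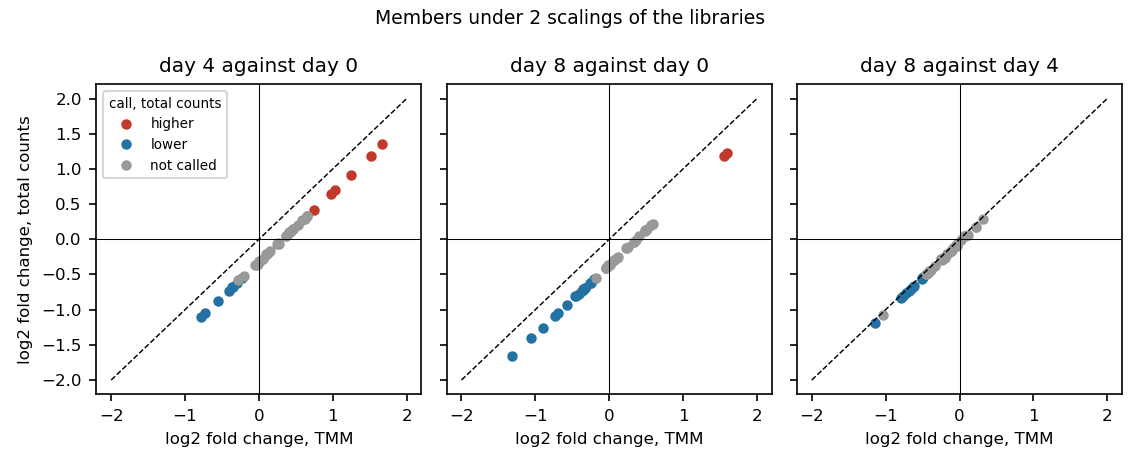
Log2 fold change of each of the 43 genes with TMM scaling (x axis) and with total counts (y axis) in the 3 comparisons. Points are coloured by their call with total counts, and the dashed line marks equal values. In both comparisons with day 0 the points lie below the line, and in day 8 against day 4 they lie close to it.

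**Figure D3:**
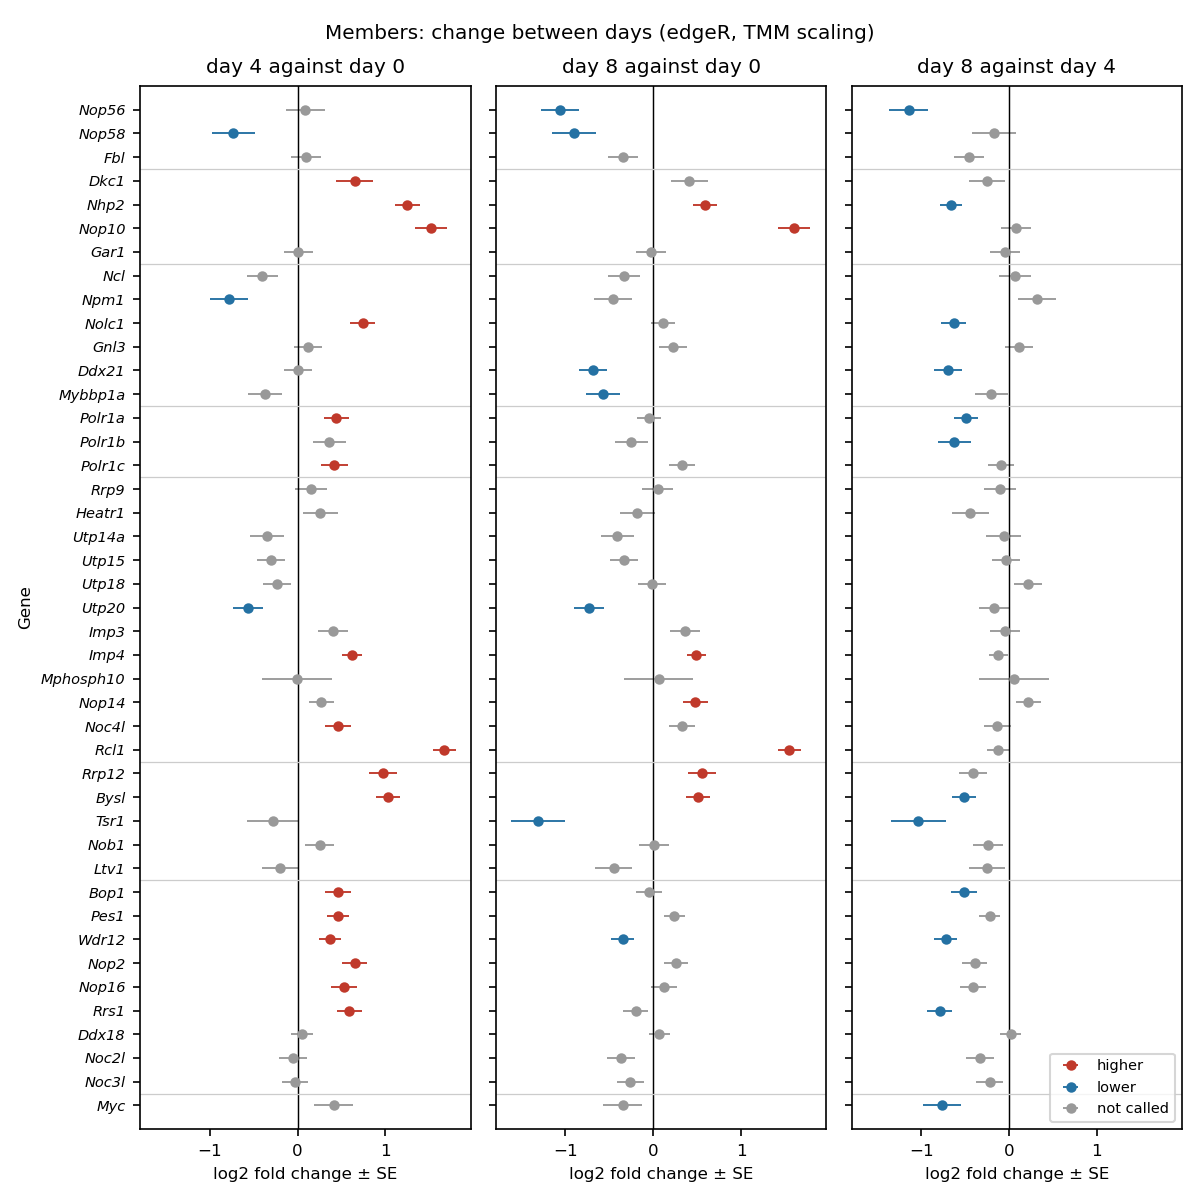
Log2 fold change of each gene with its standard error in the 3 comparisons, with TMM scaling and 3 libraries per day. Red and blue points are genes called higher and lower at an adjusted p under 0.05. The right panel holds 12 blue points and no red one.

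Promoter sequences put short motifs beside these changes. RefSeq's table of GRCm38.p6 gave the 250 bases before and 50 after the start for 37 of the 43 genes (Fbl, Npm1, Bop1, Rrp12, Rrs1 and Myc were not matched). The E-box CACGTG, the palindrome that MYC and its partner MAX bind, was in 8 of the 37 (21.6%), in 11.7% of the 10884 tested genes with an entry and in 8.09% of all 27025 genes of the table. CGCGAGA or its reverse complement TCTCGCG, the arm of a palindrome common in promoters of housekeeping genes, was in 6 of the 37 (16.2%), in 5.84% of tested genes and in 2.92% of all. Both strands were searched. The motifs cannot overlap each other, and Tsr1 alone among the 37 holds both. Matches are descriptions and not evidence of binding. The windows that lie before the start are printed 5′ to 3′ on the gene's strand, with the motif in capitals, to show each site with its flanks.
Imp4 (chr1:34439697-34439724, plus strand): cggtcttagacCACGTGacatcccaaat
Nop2 (chr6:125131812-125131839, plus strand): tgtccctggatCACGTGtgttccggtgc
Utp18 (chr11:93885770-93885797, minus strand): cgagcgccggtCACGTGgcttgcggcgg
Nop58 (chr1:59684843-59684871, plus strand): aaaaaaaaaagTCTCGCGatattttaagg
Tsr1 (chr11:74898003-74898031, plus strand): gcaaaaaacctCGCGAGAggtcgcggaag
Wdr12 (chr1:60098349-60098377, minus strand): gagccccacaaCGCGAGAggggagtccgc
Nop14 (chr5:34660166-34660194, minus strand): acttgtgtactTCTCGCGaaatacgggaa
The Wdr12 site lies within the 250 bases before 1 of the 3 starts of that gene. The E-box begins 121, 60 and 20 bases before the start in Imp4, Nop2 and Utp18, and after the start in Ltv1, Mybbp1a, Pes1, Tsr1 and Utp20. Of these 8 genes Imp4, Nop2 and Pes1 rose by day 4, Utp20 fell, Mybbp1a, Tsr1 and Utp20 were lower at day 8 than at day 0, and Ltv1 and Utp18 were called in no comparison. Of the genes with the other motif, Wdr12 and Polr1c rose by day 4 and Nop58 fell. Nop58, Tsr1 and Wdr12 were lower at day 8 than at day 0, Nop14 was higher, Tsr1 and Wdr12 fell from day 4 to day 8, and Noc2l was called in none. These are calls with TMM scaling. With total counts no carrier of either motif was called higher in any comparison, and Nop58, Tsr1, Wdr12, Utp20 and Mybbp1a were still lower at day 8 than at day 0.

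In the box H/ACA snoRNP core 3 of 4 genes rose by day 4 (2 with total counts), by unequal amounts. The background of all tested genes was 28.6% higher (21% with total counts). This core is made of 4 proteins: dyskerin (Dkc1), the pseudouridine synthase, with NOP10, NHP2 and GAR1. Nop10, the small subunit that bridges dyskerin and the guide RNA, stood at 34.1, 37.5 and 38.5 CPM at day 0, at 117, 86.6 and 111 at day 4 and at 96.1, 140.3 and 97.3 at day 8. Both later days lie wholly above day 0 and overlap each other. Nop10 rose by day 4 (log2 fold change of 1.52, SE 0.18, adjusted p = 5.39e-05) and was above day 0 at day 8 too (1.60, SE 0.18, adjusted p = 3.02e-05), and with total counts both calls remained (1.18 and 1.23). Nhp2, which binds the guide RNA's stem, was at 43.4, 45 and 42.1 CPM, then 107, 101 and 102, then 53.6, 74.6 and 67.7. The 3 days did not overlap: Nhp2 rose by day 4 (log2 fold change of 1.25, SE 0.14, adjusted p = 3.22e-05) and fell from day 4 to day 8 (-0.66, SE 0.13, adjusted p = 0.00773). At day 8 it was above day 0 with TMM (0.59, SE 0.14, adjusted p = 0.00312), a call lost with total counts (0.22, adjusted p = 0.153).

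Dkc1 was at 7.66, 5.8 and 7.01 CPM at day 0 and 10.3, 11.2 and 10.7 at day 4, with no overlap, and rose (log2 fold change of 0.65, SE 0.21, adjusted p = 0.0233). That call was lost without replicate 2 or 3 of day 0 or replicate 3 of day 4 (adjusted p from 0.057 to 0.0956) or with total counts (0.228). At day 8 it was 11.7, 8.02 and 7.36 CPM, highest in replicate 1. Gar1, which helps release the finished RNA, was at 15.6, 16.8 and 16.7 CPM at day 0, 14.6, 19.6 and 15.2 at day 4 and 14.2, 18.9 and 15.1 at day 8, and the days overlapped (log2 fold changes 0.01, -0.03 and -0.04 with SE 0.17 each). A ratio of raw counts within a library is free of scaling. The Nop10 to Gar1 ratio was 2.18, 2.24 and 2.31 at day 0, 8.01, 4.42 and 7.32 at day 4 and 6.77, 7.41 and 6.44 at day 8, with no overlap between day 0 and either later day. The Nhp2 to Gar1 ratio was 2.77, 2.68 and 2.52, then 7.31, 5.15 and 6.71, then 3.78, 3.94 and 4.48, with no overlap between any 2 days. With 3 libraries against 3, a two-sided exact permutation test of such a ratio cannot go below p = 0.1.

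**Figure D4:**
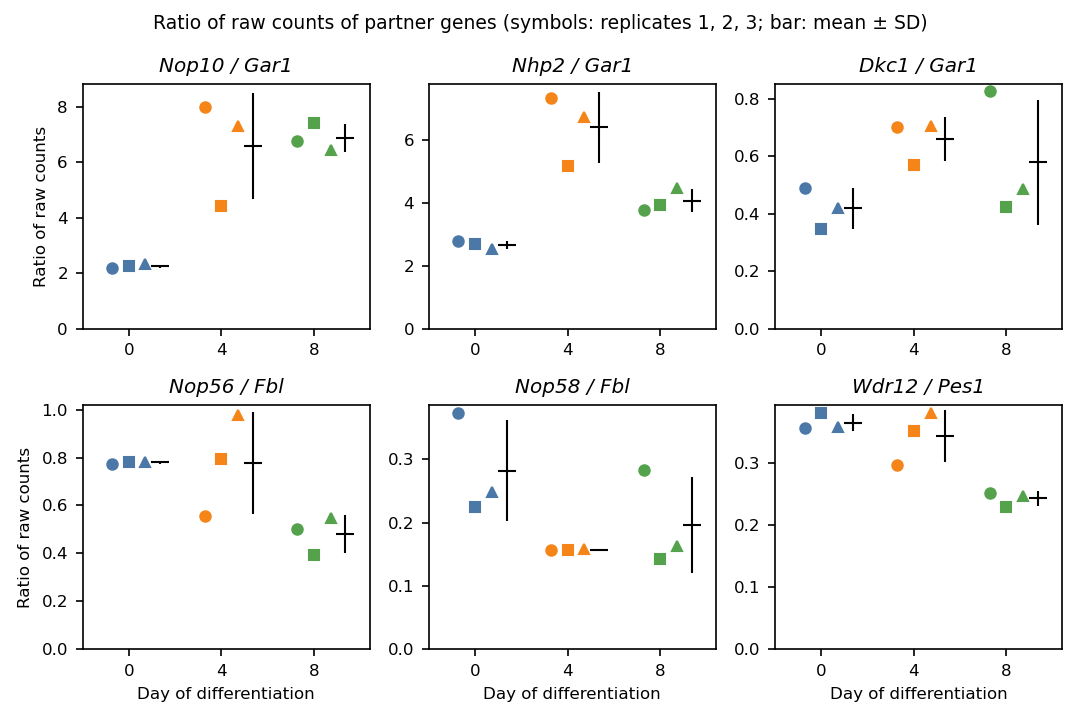
Ratio of the raw counts of partner genes in each library by day, with the replicate as the symbol and the mean ± SD of 3 libraries beside it. Nop10 and Nhp2 are higher against Gar1 in all 3 day 4 libraries than in any of day 0, and Nop56 and Wdr12 are lower against Fbl and Pes1 in all 3 of day 8.

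Of the 3 listed genes of the box C/D snoRNP core, 2 were lower at day 8 than at day 0, and all 3 with total counts. The background of all tested genes was 29.9% lower (41.3% with total counts). These 3 genes encode the methyltransferase fibrillarin (Fbl) and the scaffold pair NOP56 and NOP58. Nop56 was at 43.7, 46.4 and 48.9 CPM at day 0, at 32.2, 64.2 and 51.4 at day 4 and at 20.3, 20.3 and 26.3 at day 8. The day 4 libraries spread to both sides of day 0, and all day 8 libraries lie below all others. Nop56 was lower at day 8 than at day 0 (log2 fold change of -1.06, SE 0.22, adjusted p = 0.00187) and than at day 4 (-1.14, SE 0.22, adjusted p = 0.0065), and both calls passed without any one library and with total counts. Nop58 stood at 21, 13.3 and 15.5 CPM, then 9.1, 12.6 and 8.31, then 11.4, 7.38 and 7.82, so it was already lower at day 4 (log2 fold change of -0.73, SE 0.25, adjusted p = 0.0286) and was below day 0 at day 8 too (-0.90, SE 0.25, adjusted p = 0.00869). The day 4 call was lost without replicate 1 of day 0 or replicate 1 or 3 of day 4 (adjusted p from 0.0813 to 0.125). The highest Nop58 value of day 0 and of day 8 was in replicate 1 of each.

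Fbl was called in no comparison, with 56.4, 59.3 and 62.4 CPM at day 0, 58, 80.7 and 52.5 at day 4 and 40.5, 52 and 48 at day 8. Its day 8 libraries lie below those of both other days, at log2 fold changes of -0.34 from day 0 (adjusted p = 0.0999) and -0.45 from day 4 (adjusted p = 0.0823). The first passed without day 4 replicate 2 (adjusted p = 0.00953) and with total counts (-0.71, adjusted p = 0.00706). The Nop56 to Fbl ratio of counts was 0.774, 0.782 and 0.783 at day 0, 0.554, 0.795 and 0.979 at day 4 and 0.5, 0.391 and 0.548 at day 8, so Nop56 dropped further than Fbl in each day 8 library. The Nop58 to Fbl ratio was 0.373, 0.224 and 0.248 at day 0, 0.157, 0.156 and 0.158 at day 4 and 0.283, 0.142 and 0.163 at day 8. Days 0 and 4 did not overlap, and day 8 overlapped both.

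Of 3 RNA polymerase I subunits, 2 rose by day 4 with TMM and none with total counts, and 2 fell from day 4 to day 8 under both. Among all tested genes 28.6% rose by day 4 (21% with total counts) and 10.8% fell from day 4 to day 8 (10.4%). Polr1a, the largest, catalytic subunit, was at 29.2, 27.1 and 29.2 CPM at day 0, 32.5, 44.3 and 39.2 at day 4 and 24.7, 28 and 30.0 at day 8. It rose by day 4 (log2 fold change of 0.44, SE 0.14, adjusted p = 0.0244) and fell again by day 8 (-0.49, SE 0.14, adjusted p = 0.0353). The rise was lost without replicate 1, 2 or 3 of day 0 or replicate 2 or 3 of day 4 (adjusted p from 0.0584 to 0.0841) or with total counts (0.544), and the fall passed without day 4 replicate 1 or 2 only (adjusted p from 0.0507 to 0.102 without any other library). Polr1b, the second-largest subunit, was at 10.6, 10.2 and 11.6 CPM at day 0, 10.3, 16.6 and 14.8 at day 4 and 8.95, 9.41 and 8.8 at day 8, below all other libraries. It was lower at day 8 than at day 4 (log2 fold change of -0.62, SE 0.19, adjusted p = 0.0409), a call that passed without day 4 replicate 1 and did not without any other library (adjusted p from 0.0599 to 0.116). Polr1c, which RNA polymerase III shares, rose by day 4 from 50.2 ± 1.82 to 67.1 ± 5.25 CPM (log2 fold change of 0.42, SE 0.15, adjusted p = 0.037). The Polr1c call was lost without replicate 1, 2 or 3 of day 0 or replicate 1 or 2 of day 4 (adjusted p from 0.0529 to 0.112) or with total counts (0.586).

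The small-subunit processome, with 12 genes, held the largest rise of the 43. At day 4, 3 of its genes were higher and 1 lower (1 and 4 with total counts), and at day 8, 3 were higher and 1 lower than at day 0 (1 and 3). None of the 12 was called between days 4 and 8. Shares of all tested genes were 28.6% higher and 26% lower at day 4 (21% and 38.4% with total counts). At day 8 these shares were 33.5% and 29.9% (24.8% and 41.3%), and 22.4% of all tested genes were called between days 4 and 8. Rcl1, a protein needed for early cutting of the ribosomal RNA precursor, was at 26, 26.6 and 27.7 CPM at day 0, 81.1, 84.7 and 89.9 at day 4 and 69.4, 90.6 and 75.4 at day 8. Both later days lie far above day 0 and overlap each other. The log2 fold change was 1.67 by day 4 (SE 0.13, adjusted p = 3.19e-06) and 1.55 by day 8 (SE 0.13, adjusted p = 4.77e-06). With total counts these were 1.35 and 1.18. Imp4, which pairs the U3 snoRNA with the precursor, went from 37.3, 35.8 and 37.2 CPM to 56.8, 58.2 and 54.3 at day 4 and 51.7, 50.5 and 53.1 at day 8 (log2 fold change of 0.62, SE 0.11, adjusted p = 0.000669 by day 4; 0.49, SE 0.11, adjusted p = 0.00201 by day 8). Both Imp4 calls passed without any one library and not with total counts (adjusted p = 0.0539 and 0.34).

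Utp20, a very large scaffold protein, fell from 19.4, 15.4 and 21.1 CPM at day 0 to 12.2, 14.5 and 11.2 at day 4 and 11.4, 11.3 and 11.1 at day 8 (log2 fold change of -0.56, SE 0.17, adjusted p = 0.0152 by day 4; -0.73, SE 0.17, adjusted p = 0.00303 by day 8). Both later days lie below day 0. The day 4 call was lost without replicate 3 of day 0 or replicate 3 of day 4 (adjusted p from 0.0681 to 0.0691). Noc4l rose by day 4, from 16.3, 19.6 and 18.3 to 23.8, 28.6 and 22.3 CPM (log2 fold change of 0.46, SE 0.15, adjusted p = 0.0264), but not without replicate 1 or 3 of day 0 or replicate 2 of day 4 (adjusted p from 0.0631 to 0.111) or with total counts (0.467). Its partner Nop14 went from 19.9, 19 and 17.3 CPM at day 0 up to 27.9, 27 and 23.6 at day 8 (log2 fold change of 0.48, SE 0.14, adjusted p = 0.0112), but not without replicate 3 of day 0 (adjusted p 0.0659) or with total counts (0.443). The other 7, called in no comparison, were Rrp9, a U3-specific protein, Heatr1, Utp14a, Utp15, Utp18, Imp3 and Mphosph10. With total counts Utp14a (adjusted p = 0.00576) and Utp15 (0.00669) were lower at day 8 than at day 0, as they were without replicate 1 of day 8 (0.015, Utp14a) or replicate 2 of day 4 (0.0294, Utp15). At day 4 Utp14a (adjusted p = 0.0136), Utp15 (0.014) and Utp18 (0.0215) were lower than at day 0 with total counts. Without day 4 replicate 2, Utp15 was lower at day 4 too (0.0325). Imp3, with the highest CPM of them, was at 40.0, 46.4 and 50.7 CPM at day 0, 63, 60.3 and 57.1 at day 4 and 46.4, 74.6 and 54.7 at day 8, and its day 4 change missed the threshold (log2 fold change of 0.40, SE 0.17, adjusted p = 0.0756) but passed without day 8 replicate 1 or 2 (adjusted p = 0.0463 and 0.0259), as did that at day 8 without replicate 1 of that day (0.0253). Mphosph10, which joins Imp3 and Imp4 in a complex, had the lowest level per length of the 43 at day 0 (1.12 CPM per kilobase of exon, 4.16 ± 1.65 CPM), with a SE of 0.39 to 0.40 in the 3 comparisons.

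Among 5 factors of late small-subunit maturation, 2 rose by day 4 under both scalings, and 1 was lower at day 8 than at day 0 (2 with total counts). Over all tested genes 28.6% were higher at day 4 (21% with total counts) and 29.9% lower at day 8 (41.3%). Bysl, which binds the precursor of the small subunit in the nucleus, was at 29, 34.1 and 30.4 CPM at day 0, 57.8, 63.4 and 69.3 at day 4 and 38.4, 47.8 and 47.1 at day 8. All day 4 libraries lie above all day 8 libraries, and those above all of day 0. Bysl rose by day 4 (log2 fold change of 1.03, SE 0.14, adjusted p = 0.000125), and its fall from day 4 to day 8 (-0.51, SE 0.14, adjusted p = 0.0233) was lost without replicate 3 of day 4 or replicate 1 of day 8 (adjusted p from 0.0697 to 0.0861). Rrp12, an export factor of both subunits, rose from 9.14, 7.93 and 9.26 to 16.2, 17.9 and 17.6 CPM by day 4 (log2 fold change of 0.97, SE 0.16, adjusted p = 0.000536) and was at 10.8, 14 and 14.1 CPM at day 8 (0.56, SE 0.16, adjusted p = 0.0106 against day 0). The Rrp12 call at day 8 was lost without replicate 2 of day 0 (adjusted p = 0.0521). With total counts neither the Rrp12 call (0.321) nor that of Bysl (0.378) at day 8 passed.

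Tsr1, a GTPase-like factor on the late small-subunit precursor, had the lowest log2 fold change of the 43 at day 8 against day 0. It was at 15.6, 14.9 and 14.6 CPM at day 0, 7.51, 17.2 and 12.5 at day 4 and 5.45, 4.25 and 8.48 at day 8. The day 4 libraries overlap those of day 0, and 1 day 8 library lies above the lowest of day 4. Tsr1 was lower at day 8 than at day 0 (log2 fold change of -1.31, SE 0.31, adjusted p = 0.0038), and without any one library too. Its fall from day 4 (-1.03, SE 0.31, adjusted p = 0.038) passed without day 4 replicate 1 or day 8 replicate 3, but not without any other library (adjusted p from 0.0561 to 0.122) or with total counts (0.0523). In the GENCODE M21 annotation 32.3% of its exon bases overlap Srr on the other strand. Whether counting used strand is not stated, which leaves its counts uncertain. Of the 43 genes, 19 share exon bases with another gene, 17 of them on the opposite strand, and the share passes 20% only in Tsr1 and Noc2l. It is 9.37% in Bysl (with Ccnd3) and 8.12% in Nop56 (with Idh3b and 4 snoRNA genes). Nob1, the nuclease that makes the last cut of 18S RNA, was at 25.7, 28.4 and 30.4 CPM at day 0, 29.4, 38.8 and 32.2 at day 4 and 24.5, 34.8 and 26 at day 8, and the days overlapped. Ltv1, a factor of the same particle, was at 18.5 ± 0.851, 16.1 ± 1.94 and 13.6 ± 3.96 CPM. Neither was called, but Ltv1 was lower at day 8 than at day 0 without day 8 replicate 1 (adjusted p = 0.0276) and with total counts (0.0137).

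In large-subunit assembly 6 of 9 genes rose by day 4 with TMM and none with total counts. At day 8 against day 0 none was higher under either scaling, and 1 was lower with TMM (Wdr12) against 5 with total counts (Bop1, Wdr12, Rrs1, Noc2l and Noc3l). From day 4 to day 8, 3 fell under both. All tested genes gave 28.6% higher at day 4 (21% with total counts), and 33.5% higher and 29.9% lower at day 8 (24.8% and 41.3%). Between days 4 and 8, 10.8% of them fell (10.4%). Rrs1, which brings the 5S particle into the large subunit, was at 33.5, 41 and 35.5 CPM at day 0, 48.9, 57.6 and 59.2 at day 4 and 31.1, 29.6 and 35 at day 8. Every day 4 library lies above every other. It rose by day 4 (log2 fold change of 0.59, SE 0.14, adjusted p = 0.00401) and fell by day 8 (-0.79, SE 0.14, adjusted p = 0.00373). Nop2, a methyltransferase of 28S RNA, rose from 36.2, 35.3 and 38.5 to 49.9, 61 and 61.6 CPM (log2 fold change of 0.65, SE 0.14, adjusted p = 0.00264), and Nop16 rose from 27.6 ± 1.4 to 39.8 ± 4.26 CPM (log2 fold change of 0.53, SE 0.15, adjusted p = 0.014; adjusted p = 0.0516 without replicate 2 of day 0).

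Pes1, Bop1 and Wdr12 form the PeBoW complex, which is needed to process the large-subunit RNA. All 3 rose by day 4: Pes1 from 63.1, 64.2 and 66.7 to 91.2, 92.7 and 83.4 CPM (log2 fold change of 0.46, SE 0.12, adjusted p = 0.00746), Bop1 from 54.3, 52.4 and 59.6 to 70.6, 77.3 and 81.4 (0.46, SE 0.15, adjusted p = 0.0218) and Wdr12 from 22.5, 24.4 and 23.8 to 27.1, 32.6 and 31.7 (0.37, SE 0.13, adjusted p = 0.0317). The Bop1 call was lost without replicate 1 or 2 of day 0 or replicate 3 of day 4 (adjusted p from 0.0705 to 0.0757), and that of Wdr12 without replicate 1, 2 or 3 of day 0 or replicate 2 or 3 of day 4 (from 0.0633 to 0.124). None of the 6 rises of the group was called with total counts (adjusted p from 0.0867 for Nop2 to 0.776 for Wdr12). At day 8 the 3 genes differed. Wdr12 was at 18.4, 19.6 and 17.3 CPM, below every library of the other days, and fell from day 4 (log2 fold change of -0.72, SE 0.13, adjusted p = 0.00446). Bop1 fell too, to 42.4, 59.4 and 58.9 CPM (-0.51, SE 0.15, adjusted p = 0.0324; not without replicate 3 of day 4 or replicate 1 of day 8, adjusted p from 0.081 to 0.103), and Pes1, at 73.1, 85.6 and 70.2 CPM, was not called (-0.22, SE 0.12, adjusted p = 0.194). The Wdr12 to Pes1 ratio of counts was 0.356, 0.381 and 0.357 at day 0, 0.297, 0.352 and 0.38 at day 4 and 0.252, 0.229 and 0.247 at day 8. Against day 0, Wdr12 was lower at day 8 (-0.35, SE 0.13, adjusted p = 0.0342), a call lost without replicate 2 or 3 of day 0, replicate 3 of day 4 or replicate 1 or 3 of day 8 (adjusted p from 0.0538 to 0.114). The helicase Ddx18 (34.4, 33.1 and 32.6, 32.5, 35.8 and 34.9, then 35.3, 31.7 and 37.7 CPM), Noc2l and Noc3l were called in no comparison. Noc2l was at 65.3, 74.1 and 79 CPM, then 54.9, 84.2 and 72.5, then 53.9, 59.4 and 55.2, with all day 8 libraries below day 0 (-0.37, SE 0.16, adjusted p = 0.0605). That difference passed without replicate 1 of day 0 or replicate 1 or 2 of day 4 (adjusted p from 0.0108 to 0.0478) and with total counts (-0.74, adjusted p = 0.0047). Of its exon bases, 20.9% overlap Samd11 on the other strand.

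**Figure D5:**
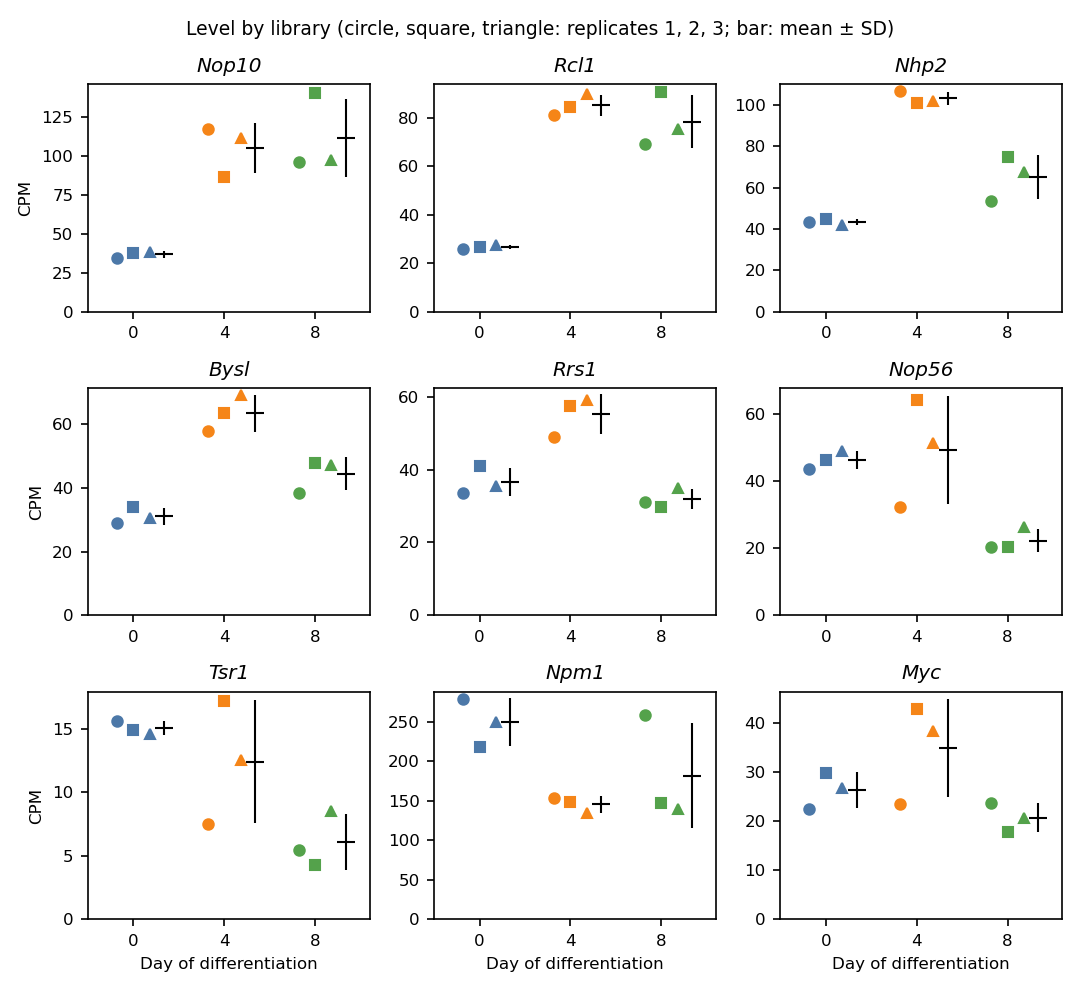
CPM of 9 of the genes in each library by day of differentiation, with the replicate as the symbol and the mean ± SD of 3 libraries beside it. All vertical axes start at 0. Nop10 and Rcl1 stay high from day 4, Nhp2, Bysl and Rrs1 peak there, and Nop56 and Tsr1 are lowest at day 8.

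Among the abundant nucleolar proteins, Npm1 and Nolc1 moved in opposite directions by day 4. Npm1, the nucleolar chaperone nucleophosmin, was at 279, 219 and 249 CPM at day 0, 154, 148 and 134 at day 4 and 258, 147 and 139 at day 8. The day 4 libraries all lie below day 0, and at day 8 replicate 1 alone was at the day 0 level. Npm1 fell by day 4 (log2 fold change of -0.78, SE 0.22, adjusted p = 0.0131), a call lost without replicate 1 of day 0 or replicate 3 of day 4 (adjusted p from 0.05 to 0.0538). At day 8 it was not called (-0.46, SE 0.22, adjusted p = 0.0946), but it was without day 8 replicate 1 (adjusted p = 0.00183) and with total counts (-0.81, adjusted p = 0.0106). Npm1 has processed pseudogenes that can share its reads. Ncl, nucleolin, was at 134, 105 and 125 CPM, then 91.5, 93.4 and 91.2, then 128, 83.8 and 78.8, again with replicate 1 highest at day 8. It was called in no comparison (adjusted p = 0.0874 at day 4), but without day 8 replicate 1 it was lower than day 0 at day 4 (adjusted p = 0.0223) and at day 8 (0.00652), and with total counts too (0.00935 and 0.0105).

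Nolc1, a chaperone of snoRNPs, rose from 36.1, 40.9 and 41.7 to 55.5, 75.5 and 67.3 CPM (log2 fold change of 0.74, SE 0.14, adjusted p = 0.00147) and fell back to 38.3, 43.7 and 45.8 by day 8 (-0.63, SE 0.14, adjusted p = 0.0125). Both calls passed without any one library. The helicase Ddx21 was at 58.6, 55.2 and 59.6 CPM, then 46.1, 72.5 and 55.3, then 38.3, 33.4 and 36.2. It was lower at day 8 than at day 0 (log2 fold change of -0.69, SE 0.16, adjusted p = 0.00359) and than at day 4 (-0.69, SE 0.16, adjusted p = 0.0143; adjusted p = 0.0528 without replicate 2 of day 8). Mybbp1a, a MYB-binding nucleolar protein, was at 94.1, 96.8 and 107 CPM at day 0, 55.6, 99.1 and 75.7 at day 4 and 61.3, 72.6 and 66.5 at day 8, and was lower at day 8 than at day 0 (log2 fold change of -0.57, SE 0.19, adjusted p = 0.0202; adjusted p from 0.0543 to 0.069 without replicate 3 of day 0 or replicate 1 or 3 of day 8). At day 4 it was not called (-0.37, SE 0.19, adjusted p = 0.116), but it was without day 4 replicate 2 (adjusted p = 0.00394) and with total counts (0.0183). Gnl3, the GTPase nucleostemin, was called in no comparison, at 26.2 ± 3.6, 28.5 ± 4.19 and 30.8 ± 3.5 CPM.

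Myc was at 22.4, 29.9 and 26.7 CPM at day 0, 23.5, 42.7 and 38.4 at day 4 and 23.6, 17.8 and 20.5 at day 8. Of the day 4 libraries, replicate 1 lies within the range of day 0 and the others above it. Myc did not pass at day 4 against day 0 (log2 fold change of 0.41, SE 0.22, adjusted p = 0.136), though it did without day 4 replicate 1 (adjusted p = 0.0134). It was lower at day 8 than at day 4 (-0.76, SE 0.22, adjusted p = 0.033), although the first replicates of both days were level. That call was lost without replicate 3 of day 0, replicate 2 or 3 of day 4 or replicate 1, 2 or 3 of day 8 (adjusted p from 0.0521 to 0.109). Against day 0, Myc was not called at day 8 (-0.35, SE 0.22, adjusted p = 0.186), and with total counts it was lower (-0.71, adjusted p = 0.0288). Among 9 tested genes of MYC's partners and rivals for MAX, 4 rose and 2 fell by day 4 (2 and 3 with total counts). By day 8, 3 rose and 4 fell (3 and 5). From day 4 to day 8, 1 rose and 4 fell under both scalings. Of all tested genes 28.6% were higher and 26% lower at day 4 (21% and 38.4% with total counts). At day 8 these shares were 33.5% and 29.9% (24.8% and 41.3%), and from day 4 to day 8 they were 11.7% and 10.8% (10.8% and 10.4%). Mxi1 and Mxd1, which pair with MAX and repress E-box genes, were higher at day 8: Mxi1 went from 33.5 ± 4.76 CPM at day 0 to 58.7 ± 20.3 at day 4 and 156 ± 33.5 at day 8 (log2 fold change of 2.23, SE 0.26, adjusted p = 4.39e-05), and Mxd1 from 7.78 ± 1.00 to 21.8 ± 4.15 and 30.7 ± 3.12 (1.98, SE 0.18, adjusted p = 8.23e-06). Mxd3, of the same family, dropped from 5.78 ± 0.551 CPM at day 0 to 1.41 ± 0.41 at day 8 (-2.03, SE 0.32, adjusted p = 0.000285). These 3 calls passed without any one library and with total counts. Mxd4, also of that family, was at 154.8 ± 8.08 CPM at day 0, 239 ± 40.45 at day 4 and 138.4 ± 21.25 at day 8. It fell from day 4 to day 8 (log2 fold change of -0.79, SE 0.16, adjusted p = 0.00823). At day 8 against day 0 Mxd4 was not called (adjusted p = 0.403), and with total counts it was lower (-0.53, adjusted p = 0.022).

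Of 14 other known MYC targets outside ribosome production, 8 were higher and 2 lower at day 4 (7 and 4 with total counts). At day 8, 6 were higher and 3 lower than at day 0 (6 and 6 with total counts), and 5 fell and none rose from day 4 to day 8. Of all tested genes 28.6% were higher and 26% lower at day 4 (21% and 38.4% with total counts). The shares were 33.5% and 29.9% at day 8 (24.8% and 41.3%), and 11.7% rose and 10.8% fell from day 4 to day 8. Nampt, an enzyme of NAD synthesis, was at 26.3 ± 3.01 CPM at day 0, 219 ± 79.8 at day 4 and 217 ± 60.0 at day 8 (log2 fold change of 3.05, SE 0.30, adjusted p = 1.22e-05 against day 0). Nme1, a nucleoside diphosphate kinase, was at 49.3 ± 2.32 CPM at day 0, 106 ± 5.82 at day 4 and 59.2 ± 8.85 at day 8 (log2 fold change of -0.84, SE 0.13, adjusted p = 0.00271 from day 4 to day 8). Of 20 cell cycle genes, 12 were lower at day 4 and 19 at day 8 than at day 0, and 13 fell from day 4 to day 8 (15, 20 and 12 with total counts). Of all tested genes 26%, 29.9% and 10.8% were lower in these 3 comparisons (38.4%, 41.3% and 10.4% with total counts). Mcm5, a subunit of the replicative helicase, was at 16.8 ± 2.8, 10.6 ± 2.83 and 2.41 ± 0.721 CPM. The part of cell division in the changes of the 43 genes was not tested.

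The rest of the pathway was followed in 132 further genes of ribosome production, all of which were tested. At day 4, 31 were higher and 10 lower, at day 8, 41 higher and 23 lower than at day 0, and between days 4 and 8, 3 rose and 8 fell. With total counts the 3 pairs were 13 and 34, 14 and 58, and 4 and 8. The balance against day 0 turned among all tested genes too, from 28.6% higher and 26% lower to 21% and 38.4% at day 4, and from 33.5% and 29.9% to 24.8% and 41.3% at day 8. Between days 4 and 8, 11.7% of all tested genes rose and 10.8% fell (10.8% and 10.4% with total counts), and 121 of the 132 were not called. The median log2 fold change of the 132 in that step was -0.025, beside -0.22 for the 43 genes and 0.003 for all tested genes. The genes named next passed under both scalings and without any one library in the comparison given. Exosc5 and Exosc4, ring subunits of the RNA exosome that trims ribosomal RNA, went from 22.7 ± 0.709 to 95.9 ± 23.9 CPM by day 8 (log2 fold change of 2.08, SE 0.20, adjusted p = 1.23e-05) and from 22.8 ± 1.51 to 58 ± 13.2 (1.35, SE 0.19, adjusted p = 0.000148). Fcf1, a PIN-domain nuclease of the processome, was at 22.8 ± 2.77, 40.8 ± 2.84 and 64.1 ± 4.63 CPM and rose in both steps (log2 fold change of 0.84, SE 0.13, adjusted p = 0.000377 by day 4; 0.65, SE 0.13, adjusted p = 0.00738 from day 4 to day 8). Among large-subunit factors Wdr18 rose from 46.3 ± 2.85 to 113 ± 13.9 CPM by day 4 (1.29, SE 0.15, adjusted p = 4.42e-05) and Pak1ip1 from 41.1 ± 3.46 to 96.8 ± 2.41 (1.23, SE 0.11, adjusted p = 9.98e-06). For RNA polymerase I, Rrn3, the factor that makes the enzyme ready to initiate, rose from 57.7 ± 2.9 to 107 ± 5.1 CPM by day 8 (0.89, SE 0.12, adjusted p = 0.000116), and Polr1d from 105 ± 8.36 to 191 ± 7.06 by day 4 (0.87, SE 0.13, adjusted p = 0.000241). In the other direction the processome protein Wdr3 went from 13.5 ± 0.106 CPM at day 0 down to 6.77 ± 1.25 at day 8 (-1.0, SE 0.19, adjusted p = 0.000966), and the large-subunit factor Urb2 from 13.9 ± 0.343 to 6.52 ± 1.1 (-1.09, SE 0.22, adjusted p = 0.00124).

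The share of all counts that came from the 43 genes was 0.187% to 0.2% at day 0, 0.158% to 0.209% at day 4, highest in replicate 2, and 0.148% to 0.154% at day 8. All day 8 libraries lie below all others. Over the same libraries 80 ribosomal protein genes held 8.2% to 9.03%, 6.39% to 8.64% and 4.63% to 6.27% of the counts. Ribosomal protein counts per count of the 43 genes were 41 to 48.2 at day 0, 35.8 to 41.4 at day 4 and 30.0 to 42.4 at day 8, and each range overlapped both others. The genes of the mitochondrial genome took 1.49% to 1.73% of counts at day 0 and 3.17% to 8.46% later.

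Levels between the 43 genes can be compared only per length. Per kilobase of exon (GENCODE M21 lengths, all exons of a gene merged), Npm1 led at day 0 with 93.5 CPM per kilobase, followed by Imp3 with 49.4, Nhp2 with 38 and Nop10 with 33.1, and the median of the 43 was 8.39. At day 4 Nop10 (94.6) and Nhp2 (90.0) were ahead of Npm1 (54.5), and at day 8 Nop10 stood first with 100.3. Merged exons include those of long rare transcripts, which lowers the values of genes that have them.

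The members are also hosts of small nucleolar RNAs, which are cut from introns. The annotation places 17 snoRNA genes inside 6 of the 43 on the same strand (Dkc1, Gnl3, Ncl, Nop56, Nop58 and Tsr1). Of these, 15 had no count in any library, Snord91a, in Tsr1, had 20 counts over the 9 libraries and Gm22771, also in Tsr1, had 3. Of the 15, 9 overlap an exon of their host, and the 17 are 68 to 133 bases long. A count of 0 in a library allows up to 3 counts. The guide RNAs were therefore not compared. RNA was taken from the supernatant of spun lysates, so RNA left in the pellet was not measured. Why so few of the guide RNAs were counted was not tested.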

How the data were processed

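The deposited values are raw read counts by gene for 9 RNA-seq libraries, not normalized by the authors. The submitters' processing notes name HISAT2, featureCounts and GRCm39. Tool versions, strand setting and annotation release are not given in the sources used here. Per the labels' protocols, lysates made with Triton X-100 and cycloheximide were spun, RNA was taken from the supernatant, and the kit was for stranded libraries of total RNA, so RNA left in the pellet was not measured.

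The test was edgeR 4.0.16 in R 4.3.3: filterByExpr (minimum count 10, minimum total 15), TMM scaling and 1 quasi-likelihood fit of all 9 libraries with no covariates (6 residual degrees of freedom, biological coefficient of variation 22.7%). Each of the 3 comparisons, which share libraries, was tested on both sides, with p-values adjusted by Benjamini-Hochberg over 14649 genes. The script was tested on simulated data. DESeq2 1.42.0, RLE size factors, total counts, no filter, a replicate block and leaving out each library were alternatives. Libraries were compared in pairs to look for a library deposited more than once, and no pair of a day matched within sampling noise (chi-square per degree of freedom 15.5 to 229). A floor of 3 counts in a library of these totals is 0.0953 to 0.114 CPM of the total; it covers counting error only.

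Exon lengths, overlaps and snoRNA positions came from GENCODE M21 (GRCm38, another build; 94.1% of IDs matched), promoters from RefSeq's GRCm38.p6 table. Polr1g was matched by its older symbol Cd3eap. The members, the lists of other genes and the tests were chosen with earlier results of these data known. All 43 members could be named, with values by library for these in each role (the 2 largest and the smallest change among those called, the most abundant never called, and Myc, Fbl, Ncl and Npm1). Of each other list, genes came from the 3 with the largest change among those called in a comparison.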

Additional observations from a re-analysis of the deposited data

How the results depend on the processing

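Of 129 results, the 43 genes in 3 comparisons, DESeq2 changed no call, RLE size factors 1, no filter on low counts 7, and total counts 34 (17 lost, 17 gained). No called value changed sign under any alternative. With total counts 6 members were higher and 8 lower at day 4 (17 and 3 with TMM), and 2 higher and 19 lower at day 8 against day 0 (7 and 7). Leaving out 1 library gave 11 to 18 higher and 0 to 5 lower at day 4, 6 to 10 higher and 5 to 10 lower at day 8 against day 0, and 6 to 14 lower with 0 higher at day 8 against day 4. The 11 came without day 0 replicate 2, the 0 without day 4 replicate 3, the 5 without day 4 replicate 2, and the 6 without day 4 replicate 3 or day 8 replicate 1. Over all genes day 8 against day 4 gave 1894 to 4185 calls (910 to 2049 higher, 929 to 2136 lower) beside 3285, the fewest without day 4 replicate 3. Without both day 4 replicate 2 and day 8 replicate 1, chosen after seeing the data, 6 were lower at day 4, and 11 were higher and 13 lower at day 8 against day 0. The sources used here do not say whether replicate numbers pair the libraries. The deviations of same-numbered libraries correlated at -0.126 to 0.273, over 0.1 in 2 of 9 pairs. Of the 9 libraries, 3 correlated best with their own number in both other days. These correlations cannot decide whether the libraries are paired. A replicate block gave 17 members higher and 3 lower at day 4, then 8 higher with 9 lower at day 8, and 10 lower from day 4 to day 8. Every member had counts in each library.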

Other observations

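Ratios of raw counts were also taken for 6 further pairs of partners. The Dkc1 to Gar1 ratio was 0.49, 0.346 and 0.42 at day 0, 0.703, 0.57 and 0.705 at day 4 and 0.826, 0.423 and 0.487 at day 8, and Nop56 to Nop58 2.08, 3.49 and 3.16, then 3.54, 5.08 and 6.18, then 1.77, 2.75 and 3.36. In both pairs day 4 lies above day 0 without overlap and day 8 overlaps day 0. The Imp3 to Imp4 ratio was 1.07, 1.3 and 1.36 at day 0, 1.11, 1.04 and 1.05 at day 4 and 0.897, 1.48 and 1.03 at day 8. The Noc3l to Noc2l ratio was 0.171, 0.146 and 0.163, then 0.199, 0.131 and 0.166, then 0.188, 0.168 and 0.164, and Bop1 to Pes1 0.861, 0.816 and 0.894, then 0.774, 0.834 and 0.977, then 0.58, 0.693 and 0.839. The Mphosph10 to Imp4 ratio was 0.158, 0.0733 and 0.107, then 0.0904, 0.0505 and 0.0812, then 0.124, 0.0492 and 0.0773, highest in replicate 1 and lowest in replicate 2 of each day. In these last 4 pairs each day overlapped both others.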
